A study of Mus musculus with 12 samples.

Results

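The response of C57BL6J glomeruli to anti-GBM glomerulonephritis (anti-GBM GN) was described from 6 of the 12 arrays of the series, chosen by their labels alone. Of these, 3 came from mice titled as day 4 of anti-GBM GN and 3 from mice titled as control animals, with 1 mouse per array. All 6 mice were C57BL6J females from Charles River, aged 8 to 10 weeks. Per the labels, nephrotoxic serum was injected on days 0, 1 and 2, mice were killed on day 4, and glomeruli were collected with nylon sieves of 100 and 45 µm. The labels repeat this protocol for the controls, whose treatment field reads control, and do not state what the controls were injected with. The other 6 arrays came from 129S2SvPAs mice under the same 2 treatments and entered only the shared estimate of the spread and the test between strains. No transgene, deletion or sorting step is named.

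The glomerulus is a tuft of capillaries whose wall has a fenestrated endothelium, a basement membrane and podocytes, held together by mesangial cells and enclosed by the parietal epithelium of Bowman's capsule. In anti-GBM GN, antibody binds to the basement membrane and is followed by complement and neutrophil recruitment, endothelial and podocyte injury and, in severe disease, proliferation of parietal cells into crescents. Nephrotoxic serum is the classical way to produce this disease in mice. Whole glomeruli were measured, so a change of RNA per cell and a change in the number of cells of a type cannot be told apart here.

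Each value is a log2 probe set signal, so a difference of 1 is a 2-fold difference. Array medians lay between 2.99 and 3.03 on the 6 arrays, and a dense floor of signals lies near these medians. A rise that starts at the floor therefore understates the fold change. Arrays correlated at 0.989 to 0.992 within controls, 0.984 to 0.991 within anti-GBM GN and 0.962 to 0.980 between the groups. Differences are anti-GBM GN minus control, given with the standard error (±) of limma's moderated test and a Benjamini-Hochberg adjusted p over the 11921 genes tested. A gene is called at an adjusted p under 0.05. Values of single arrays are listed in the order of replicates 1, 2 and 3.

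The labelled tissue was checked against marker genes. Podocyte, endothelial and mesangial markers were detected on all 6 arrays, for example podocalyxin (Podxl) at 11.67, 12.13 and 11.73 in controls and 12.32, 12.20 and 12.19 in anti-GBM GN. Podxl had the highest signal of the tested podocyte markers. The mean of the podocyte slit diaphragm and membrane list was 7.40, 7.67 and 7.11 in controls and 7.73, 7.19 and 7.39 in anti-GBM GN. Tubule RNA was also present on every array and gave strong signals, with the proximal tubule gene Miox between 13.91 and 14.22. The share of tubule RNA in the samples was not measured. The 44 tested members of a proximal tubule list had a mean log2 signal of 11.14, 11.06 and 11.35 in controls and 10.73, 10.83 and 11.06 in anti-GBM GN. The anti-GBM arrays were thus at or below the controls, and the highest of them equalled the lowest control at 2 decimals. The part of this in the results below was examined with that mean as a covariate, which is blunt with 12 arrays and raised the median standard error 1.46 times. With it, all 845 called genes kept their direction and their changes had a slope of 0.988 on the original ones, but 172 genes were called in place of 845. The T cell marker Cd3e, the B cell marker Cd79a and the haemoglobin gene Hba-a1 read between 2.20 and 2.55 on all 6 arrays, below the median signal. The T cell marker Cd3d read 2.93, 3.49 and 2.64 in controls and 2.74, 2.76 and 2.69 in anti-GBM GN. The erythroid enzyme Alas2 lay above the median on every array, at 4.64, 5.69 and 3.72 against 5.22, 4.87 and 5.03 (0.36 ± 0.56, adjusted p = 0.798).

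**Figure D1:**
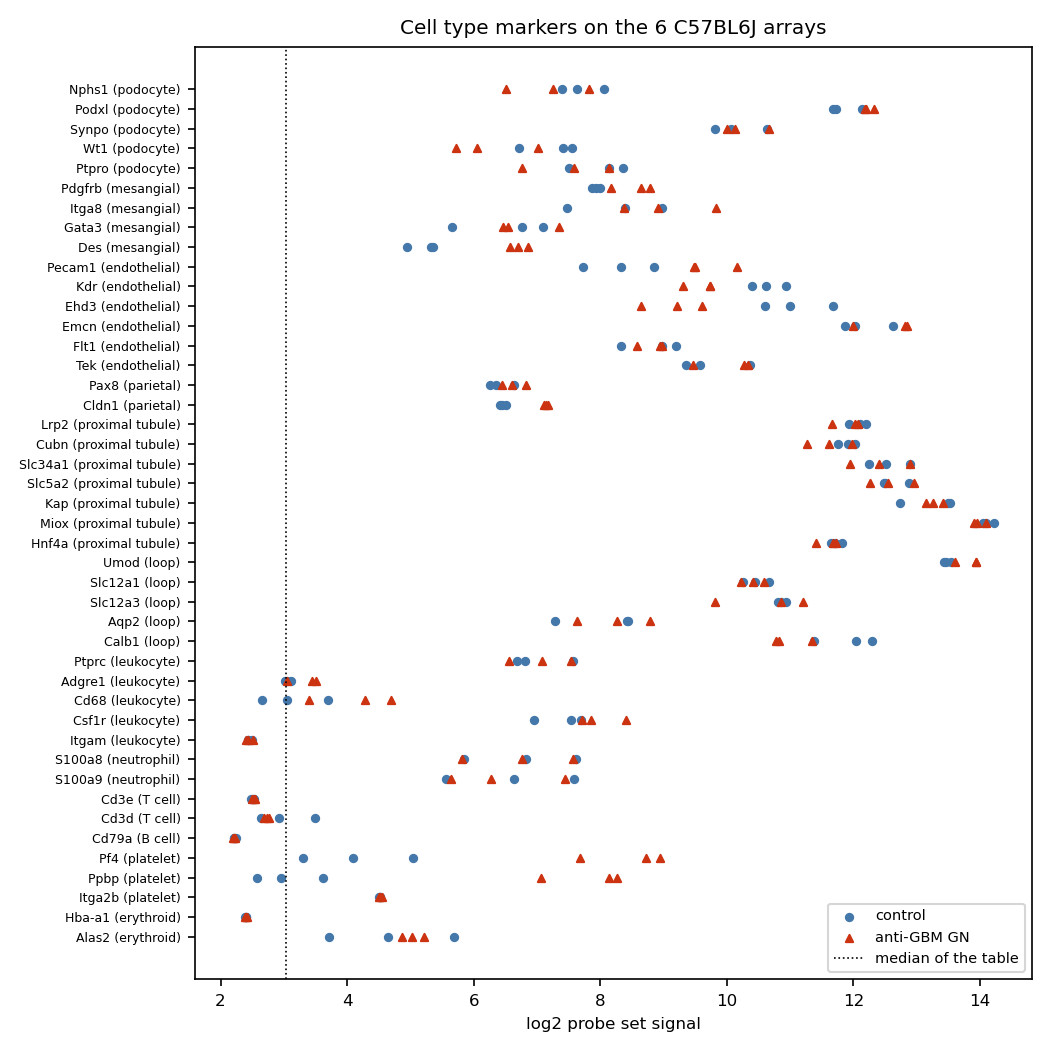
Each row is a marker gene with its cell type and each symbol an array (circles control, triangles anti-GBM GN), on the log2 probe set signal with the median of the table as a dotted line. Podocyte, endothelial and tubule markers lie above the median on all arrays, and Cd3e, Cd79a and Hba-a1 lie below it. The platelet genes Pf4 and Ppbp separate the groups, and the platelet gene Itga2b does not.

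Anti-GBM GN was called to change 845 of 11921 genes (7.09%), of which 570 were higher (4.78%) and 275 lower (2.31%). Rises were also larger than falls, with a median called rise of 1.26 against a median called fall of -0.78. A change of at least 2-fold was seen for 389 called rises and 79 called falls, and a log2 change of at least 3 for 30 rises and 0 falls. The median change over all tested genes was -0.03, with 5313 genes positive and 6587 negative. The anti-GBM arrays did not overlap the controls for 3474 genes (29.1%), 1570 higher (13.2%) and 1904 lower (16%). All 845 called genes were among these, so a lack of overlap reported below for a called gene adds nothing to its call. Of 3073 probe sets with no symbol or several, which are left out of these counts, 110 were called (3.58%).

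How many genes passed depended on single arrays. Without anti-GBM replicate 2 the count was 407, without control replicates 1, 3 and 2 it was 482, 495 and 566, without anti-GBM replicates 1 and 3 it was 512 and 978. Of the 845 genes, 370 were called in all 6 of these fits, 303 higher and 67 lower, and all 370 were also called with the replicate number as a block. A gene named below with its own value as having risen or fallen belongs to these 370 unless the text states otherwise. The counts of a list's members that rose or fell are those called with all arrays, whether or not they belong to the 370. They are counts out of tested members, to be read beside the 4.78% of all tested genes called higher and the 2.31% called lower. A gene near the floor in controls is tested only if enough other arrays are high. The called share of tested members can therefore exceed that of all members of a list. Just inside the threshold were Dhtkd1 (adjusted p = 0.0499), Nid2 (0.0498) and Man1a2 (0.0497), and just outside it Olfm3 (0.0503), Zswim7 (0.0503) and Neu2 (0.0504).

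**Figure D2:**
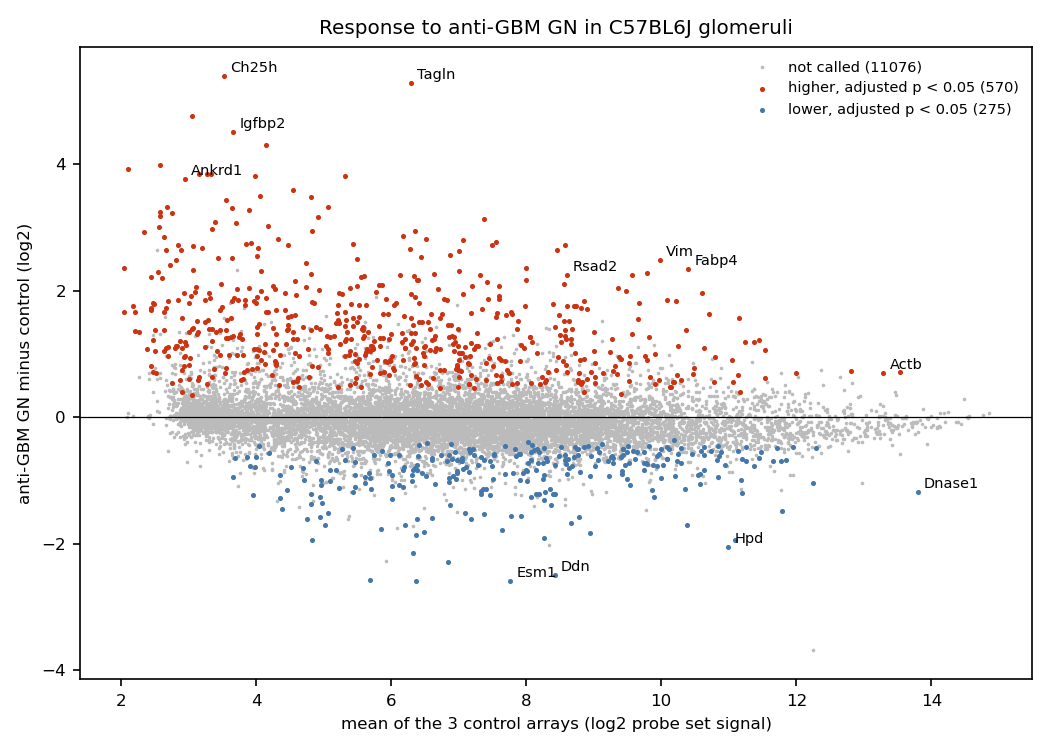
Each point is 1 of the 11921 tested genes, plotted as its mean over the 3 control arrays against the log2 difference of anti-GBM GN from control. The 570 genes called higher (red) reach larger differences than the 275 called lower (blue), and most of the largest rises start from low control signals.

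Among the genes with the largest rises, some started near the floor and others, such as Tagln and Cdkn1a, well above it. Ch25h, which encodes cholesterol 25-hydroxylase, the enzyme that makes 25-hydroxycholesterol, read 4.05, 3.30 and 3.22 in controls and 9.24, 9.03 and 8.51 in anti-GBM GN, a rise of 5.40 ± 0.25 (42.3-fold, adjusted p = 2.28e-06). Igfbp2, a carrier of insulin-like growth factors, read 3.42, 3.41 and 4.16 against 7.79, 8.29 and 8.43, a rise of 4.51 ± 0.27 (adjusted p = 1.28e-05). Ankrd1, a nuclear ankyrin-repeat protein known as a target of YAP, read 2.79, 3.06 and 2.97 against 6.94, 6.87 and 6.28, a rise of 3.76 ± 0.17 (adjusted p = 2.28e-06). In each of these the lowest anti-GBM array stood above the highest control by more than 3 on the log2 scale. The other rises among the largest 15 were of Tagln, Ppbp, Pf4, Itgb3, Mall, Ccna2, Aplnr, Ube2c, Cdkn1a, Tubb6, Apold1 and Mki67, most of which are described with their groups. In all, 14 genes lay at most 0.5 above the median signal on all control arrays and at least 2 above it on all anti-GBM arrays. Among them were Itgb3, Mall, Ankrd1, Crct1 and Anln, and 0 genes went the other way.

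The largest falls were smaller and mixed in kind. Esm1, an endothelial proteoglycan induced by VEGF, read 7.84, 8.04 and 7.41 in controls and 5.21, 5.22 and 5.05 in anti-GBM GN, a change of -2.60 ± 0.18 (adjusted p = 2.34e-05). Gm266, a predicted gene, read 6.09, 5.96 and 5.01 against 3.14, 3.06 and 3.13 (-2.58 ± 0.23, adjusted p = 0.000118). Ddn, which encodes dendrin of the podocyte slit diaphragm, read 8.46, 8.71 and 8.08 against 6.49, 4.76 and 6.50 (-2.50 ± 0.43, adjusted p = 0.00594). The groups did not overlap in any of the 3, and anti-GBM replicate 2 was the lowest array for dendrin. F8, Hpd, Hey1, Cd300lg, Thsd7a and Tmc7 were also among the 15 largest falls. The remaining 6 did not pass in every leave-one-out fit. Shisa3 (-1.91, adjusted p = 0.00956) lost its call without anti-GBM replicate 2 (0.0524), and Tiam1 (-2.15, adjusted p = 0.0128) without that array (0.0691) and without control replicate 1 (0.0507). Plet1os (-1.77, adjusted p = 0.0239) kept its call only without anti-GBM replicate 1 (0.00465) or control replicate 3 (0.0122). Ehd3, Ciart and Pvalb are given with their groups.

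**Figure D3:**
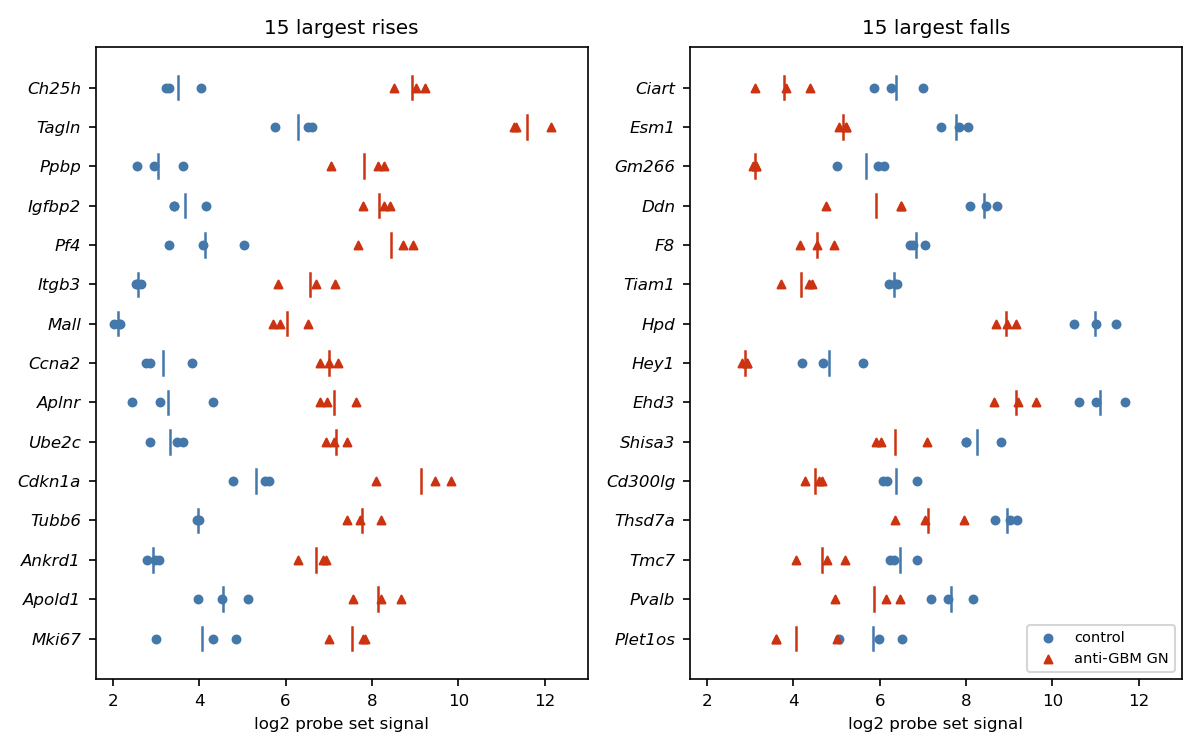
Each row is a gene and each symbol an array (circles control, triangles anti-GBM GN, bars the group means) on the log2 probe set signal, with the 15 largest called rises on the left and the 15 largest called falls on the right. The genes were chosen among those whose groups do not overlap, and the rises start mostly between 2 and 7.

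The contractile and actin-binding genes gave one of the clearest responses. Of 17 tested smooth muscle contractile genes 11 rose and 0 fell (median change 1.57, 10 to 12 called when single arrays were left out), and of 63 focal adhesion and actin genes 28 rose and 0 fell (median 0.55), against 4.78% of all genes called higher. Transgelin (Tagln), an actin cross-linking protein used as a mark of smooth muscle and of myofibroblasts, read 6.61, 6.52 and 5.75 in controls and 12.14, 11.28 and 11.34 in anti-GBM GN, a rise of 5.29 ± 0.27 (39.2-fold, adjusted p = 4.31e-06). Smooth muscle actin (Acta2) read 7.25, 7.86 and 7.60 against 9.05, 9.11 and 9.46, a rise of 1.64 ± 0.27 (adjusted p = 0.0041). The groups were far apart for transgelin and apart by more than 1 on the log2 scale for smooth muscle actin. The tropomyosins Tpm1 and Tpm2, which lie along actin filaments, rose by 1.61 ± 0.17 and 1.57 ± 0.22, and caldesmon (Cald1), a regulator of the actin-myosin interaction, by 1.99 ± 0.21. The LIM-domain proteins Pdlim7 and Csrp1 rose by 3.07 ± 0.27 and 2.13 ± 0.26. Desmin (Des), the intermediate filament of muscle and mesangial cells, rose by 1.5 ± 0.27 (adjusted p = 0.00724).

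Among the general actin genes, the cross-linkers alpha-actinin 1 (Actn1) and filamin A (Flna) rose by 2.31 ± 0.17 and 2.25 ± 0.18. Actn1 read 6.88, 7.14 and 6.99 against 9.40, 9.34 and 9.20. The other tested probe set of Actn1 was at 0.47 and was not called. The capping protein Capg rose by 1.95 ± 0.24 and the GTPase Rhoc by 1.79 ± 0.18. Abundant cytoskeletal transcripts moved as well. Cofilin (Cfl1), which severs filaments, rose by 0.69 ± 0.11, gamma-actin (Actg1) by 0.73 ± 0.11, the light chain Myl12a by 1.06 ± 0.18 and non-muscle myosin (Myh9) by 1.19 ± 0.16. Beta-actin (Actb) read 13.25, 13.29 and 13.34 against 13.95, 14.05 and 13.97 (0.70 ± 0.13, adjusted p = 0.0106), a call lost without anti-GBM replicate 2 (0.0519). Beta-actin is often used as a reference gene, and here the groups did not overlap. Of the 63 actin genes 16 were called without anti-GBM replicate 2 and 18 without control replicate 1. With the tubule covariate 5 of the 17 contractile genes and 7 of the 63 actin genes were called.

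Tubulins, vimentin and annexins were also among the rises. Of 14 tested members of the tubulin list 7 rose and 0 fell (median 0.88, 6 or 7 called when single arrays were left out). Tubb6 read 4.00, 3.97 and 3.96 in controls and 7.73, 8.20 and 7.42 in anti-GBM GN (3.81 ± 0.27, adjusted p = 2.39e-05), with controls almost identical to each other. Tubb5, Tuba1a, Tubb2a and Tubb2b rose by 1.52, 1.38, 1.30 and 1.25, and stathmin (Stmn1), which destabilises microtubules, by 0.97 ± 0.18. Vimentin (Vim), the intermediate filament of mesenchymal cells and podocytes, read 9.99, 10.23 and 9.73 against 12.67, 12.45 and 12.29 (2.49 ± 0.17, adjusted p = 2.05e-05). Of 8 tested annexins 4 were called higher. Anxa1, Anxa2 and Anxa5, which bind membrane phospholipid, rose by 2.24 ± 0.30, 1.83 ± 0.23 and 1.0 ± 0.15, and the annexin 2 partner S100a10 by 1.22 ± 0.16. The other tested probe sets of Anxa1 and Anxa2 were at 0.50 and 0.54 and were not called.

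Gamma-actin carries a CArG box, the binding motif of serum response factor (CC, 6 bases that are A or T, GG), in the 250 bases before its start, and this stretch is shown because actin and contractile genes are the textbook targets of that factor. The sequence is from RefSeq, GRCm38.p6, minus strand, chr11:120348516-120348615, 5′ to 3′, with the motif in capitals starting at base -90 from the gene's start.
Actg1: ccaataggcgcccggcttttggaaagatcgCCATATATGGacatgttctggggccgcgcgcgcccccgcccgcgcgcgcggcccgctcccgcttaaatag
Searched on both strands, the motif was found in 2 of 17 promoters of tested contractile genes (11.8%), in 5 of 70 promoters of the actin list (7.14%) and in 1.47% of all 32851 promoters. The promoter table matched 15 of the 17 and 53 of the 63 genes, and some genes have several promoters. The gene shown was chosen after its match was seen.

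Several genes of the basement membrane, the target of the serum, rose. Of 26 tested members 9 were called higher and 0 lower (median change 0.77, 7 to 10 called when single arrays were left out, 6 with the tubule covariate). The collagen chain Col4a1, which with Col4a2 forms the type IV network found in all basement membranes and in the mesangial matrix, read 9.61, 9.83 and 9.93 in controls and 11.98, 12.44 and 11.80 in anti-GBM GN (2.28 ± 0.26, adjusted p = 0.000479). Col4a2 rose by 2.10 ± 0.27. The chains Col4a3 and Col4a4, which podocytes make for the mature glomerular network and of which Col4a3 holds the Goodpasture autoantigen, changed by 0.46 ± 0.30 (adjusted p = 0.437) and 0.52 ± 0.23 (adjusted p = 0.226) and did not pass the test. Laminin gamma 1 (Lamc1), a chain shared by most laminins, read 5.70, 5.93 and 5.84 against 7.85, 8.29 and 7.59 (2.09 ± 0.17, adjusted p = 8.16e-05). Lama5, of the adult glomerular laminin, rose by 1.13 ± 0.19, whereas its partner Lamb2 was at 0.60 ± 0.25 (adjusted p = 0.198). The source of endostatin, Col18a1, rose by 1.10 ± 0.14 and the matrix protein Tinagl1 by 2.80 ± 0.33. Nidogen 2 (Nid2), at the edge of the threshold, was at 1.44 ± 0.39 and lost its call with the replicate block (adjusted p = 0.0785) and without any 1 of the 6 arrays (0.0509 to 0.206).

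In the interstitial and provisional matrix list 13 of 30 tested genes rose and 0 fell (median 1.08, 10 to 16 called when single arrays were left out, 5 with the tubule covariate). A further 17 members on the array were left untested, at signals between 1.98 and 3.48. Ccn1, a secreted matricellular protein and YAP target, read 5.0, 5.0 and 4.42 in controls and 8.40, 8.10 and 8.35 in anti-GBM GN (3.48 ± 0.23, adjusted p = 2.05e-05). Ltbp1, which stores latent TGF beta in the matrix, read 6.02, 6.60 and 6.70 against 9.01, 9.42 and 8.49 (2.53 ± 0.30). Both had no overlap between the groups. Tenascin C (Tnc), a matrix glycoprotein of wounds, left the floor with a rise of 2.06 ± 0.25, and the cross-linking enzyme Loxl1 rose by 2.32 ± 0.21. Sparc and Fstl1 rose by 1.57 ± 0.22 and 1.39 ± 0.18, although another probe set of Sparc had the opposite sign. Outside the list, the collagen chaperone Serpinh1 and the lysyl hydroxylase Plod2, both needed to make collagen, rose by 1.55 ± 0.22 and 1.16 ± 0.22. The fibrillar chains Col1a2 and Col3a1 were at 0.36 ± 0.29 (adjusted p = 0.543) and 1.11 ± 0.53 (adjusted p = 0.264), and fibronectin (Fn1) at 1.22 ± 0.39 (adjusted p = 0.0947).

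Both matrix-degrading enzymes and their inhibitors were among the called rises, 9 of 29 tested with 0 falls (median 0.43). Adamts1, a secreted protease of proteoglycans, read 6.93, 8.00 and 7.55 in controls and 10.00, 10.67 and 10.00 in anti-GBM GN (2.73 ± 0.37, adjusted p = 0.00127), and Adamts9 rose by 1.96 ± 0.24. The other tested probe set of Adamts9 was at 0.22 and was not called. The gelatinase Mmp2 and its membrane activator Mmp14 rose by 1.86 ± 0.34 and 1.05 ± 0.20. The inhibitors Timp1 and Timp2 rose by 1.34 ± 0.20 and 1.38 ± 0.23, and Timp1 stayed low, at 2.23, 2.34 and 2.23 in controls and 3.51, 3.52 and 3.79 in anti-GBM GN. The count fell to 6 without control replicate 1 or control replicate 2. Of 16 integrin chains 3 were called higher. The laminin receptor chain Itga3 rose by 1.29 ± 0.17, while Itgb1 at 1.23 ± 0.31 lost its call with the block (adjusted p = 0.0634) and in every leave-one-out fit except that without anti-GBM replicate 3 (0.0655 to 0.166 in the other 5).

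Mitosis was the list with the most called members. Of 72 tested mitosis and kinetochore genes 50 rose (69.4%) and 0 fell, with a median change of 1.41. Between 40 and 46 were called when single arrays were left out, 49 with the replicate block and 25 with the tubule covariate. The list has 93 members on the array, and 21 were left untested at signals between 2.01 and 4.42. Cyclin A2 (Ccna2), which drives S phase and mitotic entry, read 2.86, 2.77 and 3.83 in controls and 7.01, 7.22 and 6.79 in anti-GBM GN (3.85 ± 0.47, adjusted p = 0.000661). Ube2c, the ubiquitin-conjugating enzyme of the anaphase-promoting complex, read 3.63, 2.87 and 3.49 against 7.13, 7.43 and 6.94 (3.84 ± 0.54, adjusted p = 0.00164). The proliferation marker Mki67 read 4.32, 3.00 and 4.86 against 7.01, 7.84 and 7.80 (3.49 ± 0.52, adjusted p = 0.00254). Controls lay near or moderately above the floor and all anti-GBM arrays were well above it. The spindle checkpoint kinase Bub1 read 2.49, 2.47 and 2.47 against 4.35, 4.21 and 4.27 (1.80 ± 0.12), with little spread in either group. Nuf2 and Knstrn of the kinetochore rose by 2.48 ± 0.16 and 1.57 ± 0.14, the spindle proteins Hmmr, Ckap2 and Tpx2 by 1.98 ± 0.15, 2.68 ± 0.25 and 1.34 ± 0.14, and the kinesins Kif22 and Kif23 by 1.58 ± 0.20 and 2.02 ± 0.24. Anillin (Anln), the scaffold of the cleavage furrow, rose by 3.24 ± 0.36, and the centromere proteins Cenpf and Cenpa by 2.29 ± 0.26 and 1.84 ± 0.26.

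Replication and G1 genes moved less. Of 41 tested DNA replication genes 8 rose (19.5%) and 0 fell, with a median of 0.35, and this count fell to 2 without anti-GBM replicate 2 or control replicate 2, to 3 without anti-GBM replicate 1 or control replicate 3, to 4 without anti-GBM replicate 3 and to 5 without control replicate 1. Uhrf1, which guides maintenance DNA methylation, rose by 1.96 ± 0.36, and E2f7, a repressor induced in S phase, by 1.92 ± 0.19. The helicase subunit Mcm5 was at 1.25 ± 0.45 (adjusted p = 0.135) and passed only with the replicate block (adjusted p = 0.0112) among the fits of the 6 leave-outs and the block. Of 39 tested genes of G1, p53 targets and growth arrest 7 rose and 0 fell (median 0.22). The cyclin-dependent kinase inhibitor Cdkn1a (p21) read 4.79, 5.61 and 5.52 in controls and 9.45, 9.83 and 8.10 in anti-GBM GN (3.82 ± 0.41, 14.1-fold, adjusted p = 0.000325). Phlda3 and Gadd45b, which are also induced by p53 or stress, rose by 2.04 ± 0.19 and 1.78 ± 0.25, whereas the p53 target Mdm2 was at -0.12 ± 0.16 (adjusted p = 0.754). This count fell to 3 without anti-GBM replicate 1, anti-GBM replicate 2 or control replicate 3.

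Promoters of mitotic genes often hold CCAAT boxes, bound by NF-Y, and the CHR element (TTTGAA), bound by the DREAM and MuvB complexes. The promoters of 4 of the genes named above are shown from RefSeq, GRCm38.p6, 5′ to 3′ on the gene's strand, with CCAAT and TTTGAA (or their complements ATTGG and TTCAAA) in capitals. They lie at chr2:164769809-164769928 (plus strand, Ube2c), chr7:135716460-135716579 (minus, Mki67), chr2:127831870-127831969 (minus, Bub1) and chr11:40733438-40733577 (minus, Hmmr).
Ube2c: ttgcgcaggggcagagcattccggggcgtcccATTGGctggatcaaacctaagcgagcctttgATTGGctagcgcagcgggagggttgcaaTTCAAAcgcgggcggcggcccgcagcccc
Mki67: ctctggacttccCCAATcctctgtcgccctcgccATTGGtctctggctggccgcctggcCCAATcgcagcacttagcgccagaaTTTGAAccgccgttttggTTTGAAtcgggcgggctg
Bub1: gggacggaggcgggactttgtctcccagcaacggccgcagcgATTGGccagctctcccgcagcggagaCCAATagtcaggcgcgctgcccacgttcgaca
Hmmr: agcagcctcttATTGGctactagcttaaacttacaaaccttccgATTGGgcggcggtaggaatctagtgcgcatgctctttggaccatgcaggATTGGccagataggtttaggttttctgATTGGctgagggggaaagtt
Ube2c and Mki67 hold both motifs in these stretches, and Bub1 and Hmmr hold CCAAT only. Over the 250 bases before the start, CCAAT was found in 66.7% of the 66 promoters of tested mitosis genes and in 33.8% of all 32851 promoters, and TTTGAA in 39.4% and 16%. In the 45 promoters of the 50 called members the shares were 71.1% and 46.7%. The promoter table matched 59 of the 72 tested genes, and the 4 genes shown were chosen after their matches were seen.

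**Figure D4:**
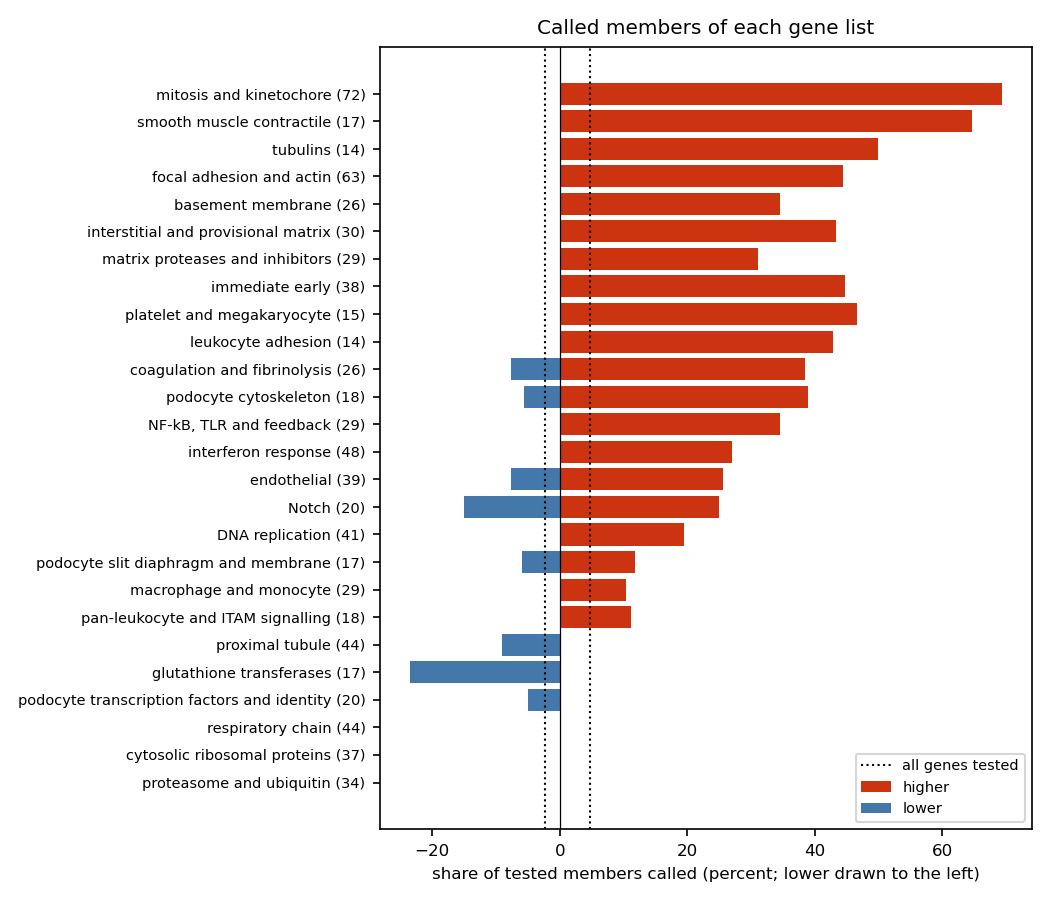
Bars give the percent of tested members of each list (number in parentheses) called higher (red, to the right) or lower (blue, to the left), with dotted lines at 4.78% and 2.31%, the shares over all 11921 genes. Mitosis (69.4%) and smooth muscle genes lead, and the respiratory chain, cytosolic ribosomal proteins and the proteasome list have no called member.

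Endothelial genes moved in both directions. Of 39 tested members 10 rose and 3 fell (median 0.51). With the replicate block 15 rose and 4 fell, and the rises numbered 6 without anti-GBM replicate 1, anti-GBM replicate 2, control replicate 1 or control replicate 3, 10 without control replicate 2 and 13 without anti-GBM replicate 3. With the tubule covariate 3 rose and 1 fell. The apelin receptor Aplnr, a receptor of sprouting and venous endothelium, read 3.10, 2.44 and 4.31 in controls and 6.95, 7.62 and 6.80 in anti-GBM GN (3.84 ± 0.42, adjusted p = 0.000339), and its ligand Apln rose by 1.43 ± 0.24. Endothelial nitric oxide synthase (Nos3) read 5.99, 6.34 and 6.21 against 8.89, 9.38 and 8.84 (2.86 ± 0.33, adjusted p = 0.000515). The groups were apart for both. The other tested probe set of Aplnr was at 1.27 and was not called. Apold1, an early-response gene of endothelial cells counted in the immediate early list, read 3.98, 5.14 and 4.52 against 8.20, 8.68 and 7.56 (3.60 ± 0.30, adjusted p = 8.66e-05). Cd93, a surface lectin of endothelium and myeloid cells counted in the complement list, rose by 2.63 ± 0.23, thrombomodulin (Thbd), the anticoagulant receptor of thrombin, by 2.64 ± 0.40, and the VEGF and semaphorin co-receptor Nrp2 by 1.53 ± 0.27.

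The falling endothelial genes were Esm1, F8 and Ehd3. Coagulation factor VIII (F8), made by endothelial cells, read 6.71, 7.04 and 6.78 in controls and 4.94, 4.55 and 4.16 in anti-GBM GN (-2.29 ± 0.39, adjusted p = 0.00513). Ehd3, an endocytic protein that in the kidney marks glomerular endothelium, read 10.61, 11.67 and 11 against 9.61, 9.21 and 8.64 (-1.94 ± 0.39, adjusted p = 0.0138), and lost its call without anti-GBM replicate 2 (0.0538) and without control replicate 2 (0.0549). The groups did not overlap for either gene. Cd300lg, an endothelial surface receptor outside the list, fell by 1.86 on the log2 scale (SE 0.30, adjusted p = 0.00357). The pan-endothelial adhesion molecule Pecam1 was at 1.41 ± 0.38 with an adjusted p of 0.0519, and with the replicate block it passed (0.0202). The VEGF receptors Kdr and Flt1 were at -1.05 ± 0.37 (adjusted p = 0.13) and 0.00 ± 0.38 (adjusted p = 0.999), the angiopoietin receptor Tek at 0.26 ± 0.41 (adjusted p = 0.797) and the sialomucin Emcn at 0.38 ± 0.48 (adjusted p = 0.732). Endothelial markers of different kinds thus had changes of both signs. Of the 18 tested VEGF and angiopoietin genes 2 were called, both higher (11.1%, against 4.78% of all genes).

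In the vasoactive list 5 of 27 tested genes rose and 0 fell. The endothelin receptor Ednrb read 7.0, 8.35 and 7.31 in controls and 10.45, 10.84 and 9.69 in anti-GBM GN (2.77 ± 0.50, adjusted p = 0.00712), and its ligand Edn1 was at 0.39 ± 0.32 (adjusted p = 0.557). Adrenomedullin (Adm), a vasodilator peptide, rose by 1.98 ± 0.36, and its receptor partner Ramp3 by 1.87 ± 0.22. The angiotensin receptor Agtr1a was at 0.17 ± 0.25 (adjusted p = 0.79). Notch genes also split, with 5 called higher and 3 lower of 20 tested, and 4 called in all without anti-GBM replicate 2 or control replicate 3, 5 without anti-GBM replicate 1 or control replicate 1. The endothelial ligand Dll4 read 4.45, 5.35 and 4.47 against 3.28, 2.86 and 3.26 (-1.62 ± 0.26, adjusted p = 0.00354), and the target Hey1 read 4.2, 5.62 and 4.68 against 2.92, 2.93 and 2.81 (-1.95 ± 0.27, adjusted p = 0.00163). Nrarp, another Notch target and a feedback regulator, rose by 1.78 ± 0.23 and the glycosyltransferase Lfng by 0.96 ± 0.16. The receptors Notch1 and Notch4 were at -0.14 ± 0.33 (adjusted p = 0.879) and 0.24 ± 0.29 (adjusted p = 0.726).

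Podocyte genes showed no common direction. Of 17 tested slit diaphragm and membrane genes 2 rose and 1 fell (median -0.02). Nephrin (Nphs1), the core of the slit diaphragm, read 7.64, 8.06 and 7.40 in controls and 7.82, 6.51 and 7.25 in anti-GBM GN (-0.51 ± 0.45, adjusted p = 0.59), with overlapping groups. Podxl was at 0.39 ± 0.23 (adjusted p = 0.372), synaptopodin (Synpo) at 0.10 ± 0.31 (adjusted p = 0.923) and the phosphatase Ptpro at -0.51 ± 0.36 (adjusted p = 0.471). Thsd7a, a foot process protein and autoantigen of membranous nephropathy, read 9.01, 9.18 and 8.66 against 7.94, 6.36 and 7.04 (-1.84 ± 0.36, adjusted p = 0.0106). T-cadherin (Cdh13), also expressed by endothelium, left the floor, from 2.64, 2.88 and 2.41 to 5.28, 5.78 and 5.42 (2.85 ± 0.26, adjusted p = 0.000118).

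Among podocyte cytoskeletal genes 7 of 18 rose and 1, dendrin, fell (median 0.56). The 7 include vimentin, Myh9 and anillin, given above, which are not specific to podocytes. Nestin (Nes), an intermediate filament of podocytes, read 6.17, 7.26 and 6.75 in controls and 8.44, 8.11 and 8.35 in anti-GBM GN (1.57 ± 0.29, adjusted p = 0.00774), and Shroom3, which controls actomyosin tension, rose by 0.79 ± 0.12. Of 20 tested transcription factors and identity genes 0 rose and 1 fell, near the background of 2.31%, with a median of -0.37, and that call was lost without anti-GBM replicate 1 or 2 and without control replicate 2 or 3. The master factor Wt1 read 7.41, 7.55 and 6.71 against 7.02, 5.72 and 6.05 (-0.96 ± 0.39, adjusted p = 0.186), and Tcf21 was at -1.39 ± 0.44 (adjusted p = 0.092). For Wt1 the groups overlapped and anti-GBM replicate 2 was lowest, as it was for nephrin, dendrin and Thsd7a. In the parietal epithelial list 1 of 13 tested genes rose (7.69%, against 4.78% of all genes). This was Akap12, a kinase scaffold, from 7.20, 7.45 and 7.49 to 10.50, 10.93 and 10.13 (3.14 ± 0.33, adjusted p = 0.00027). Pax8 and claudin 1 (Cldn1), which mark these cells, were at 0.21 ± 0.17 (adjusted p = 0.556) and 0.69 ± 0.28 (adjusted p = 0.182). Of 12 mesangial and pericyte genes 2 rose, desmin and Mcam, while Pdgfrb and Itga8 were at 0.60 ± 0.31 (adjusted p = 0.302) and 0.76 ± 0.40 (adjusted p = 0.314).

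**Figure D5:**
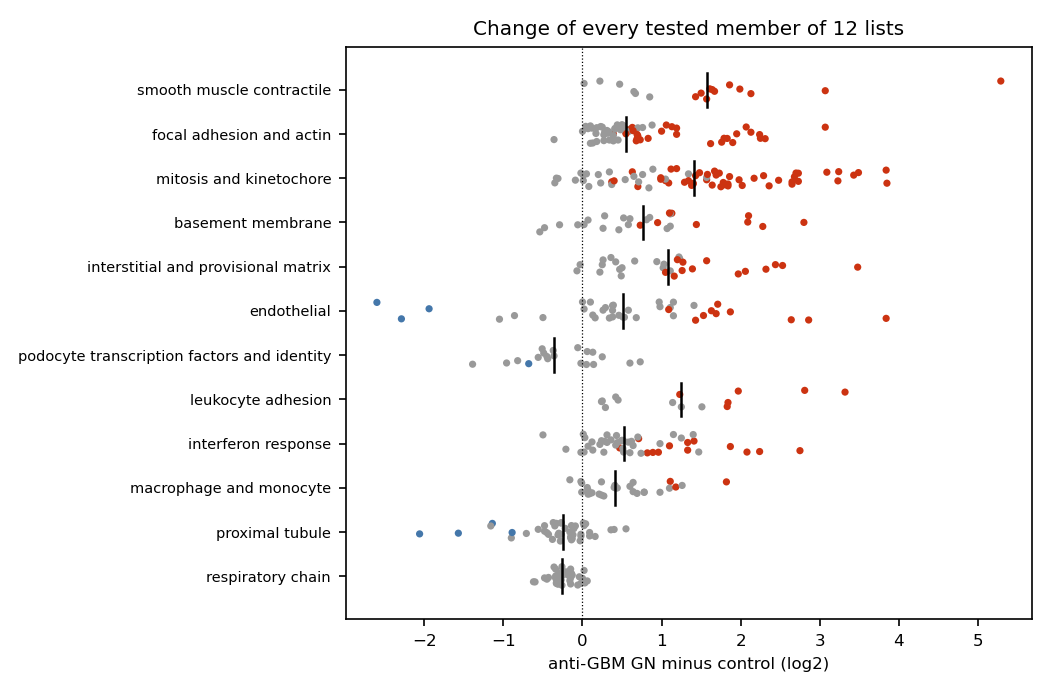
Each point is a tested member of a list, placed by its log2 difference of anti-GBM GN from control (red called higher, blue called lower, grey not called), with the list's median as a black bar. Contractile, mitosis and matrix members lie mostly to the right of 0, podocyte transcription factors around a median of -0.37, and respiratory chain members in a narrow band around -0.26.

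Several genes of leukocyte adhesion rose, and which cells made the transcripts was not tested. Of 14 tested adhesion genes 6 rose and 0 fell (median 1.24, 6 or 7 called when single arrays were left out, 2 with the tubule covariate). Vcam1, the receptor for monocytes and lymphocytes, read 3.92, 4.54 and 4.50 in controls and 7.01, 7.46 and 6.91 in anti-GBM GN (2.81 ± 0.19, adjusted p = 2.34e-05). E-selectin (Sele), on which leukocytes roll, read 2.70 on all 3 control arrays and 4.02, 4.89 and 4.67 in anti-GBM GN (1.83 ± 0.29, adjusted p = 0.00352). Icam1, the ligand of leukocyte integrins, rose by 1.23 ± 0.19. None of the 3 had overlapping groups. The junctional molecule Jam2 read 5.17, 5.42 and 4.63 against 8.51, 8.85 and 7.82 (3.32 ± 0.42, adjusted p = 0.000906), and the sialomucin Cd34 and the adhesion molecule Mcam rose by 1.84 ± 0.29 and 1.97 ± 0.36.

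Of 16 tested chemokines 6 rose and 0 fell, among them the platelet chemokines Pf4 and Ppbp. Another 16 chemokines on the array were left untested, at signals between 2.09 and 3.23. Cxcl10, which attracts T cells and is induced by interferon, read 4.15, 3.50 and 4.10 in controls and 6.97, 6.85 and 6.18 in anti-GBM GN (2.75 ± 0.32, adjusted p = 0.000533). Cxcl13, which attracts B cells, rose by 1.99 ± 0.32 and the membrane-bound chemokine Cx3cl1 by 1.71 ± 0.29. The neutrophil chemokine Cxcl1 read 3.32, 3.75 and 3.32 against 5.58, 4.47 and 4.46 (1.37 ± 0.28, adjusted p = 0.0148), a call lost without control replicate 1 (0.0635) or 3 (0.0605). The monocyte chemokine Ccl2 was at 0.15 ± 0.14 (adjusted p = 0.603) with signals near the floor. Of the 8 tested chemokine receptors 0 were called by limma and 2 had an unadjusted p under 0.05. Of 25 cytokines and receptors 2 rose and 2 fell, and 1 of each was called without any 1 array other than anti-GBM replicate 3. Tnfrsf12a, the receptor of TWEAK, read 6.45, 6.28 and 6.10 against 9.12, 8.80 and 8.89 (2.66 ± 0.23, adjusted p = 8.86e-05), and Lifr, the receptor of leukemia inhibitory factor, read 10.00, 10.86 and 10.27 against 8.88, 8.74 and 8.40 (-1.70 ± 0.33, adjusted p = 0.0113). Interleukin 6 (Il6) was at 0.78 ± 0.32 (adjusted p = 0.186), with 3.25, 4.09 and 2.49 in anti-GBM GN.

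NF-kB pathway genes rose in 10 of 29 tested cases, with 0 falls (median 0.45, 7 or 8 called when single arrays were left out, 4 with the tubule covariate). The feedback deubiquitinase Tnfaip3 (A20) read 4.67, 4.41 and 3.47 in controls and 7.56, 7.16 and 6.88 in anti-GBM GN (3.02 ± 0.31, adjusted p = 0.000248). The subunit Relb read 4.25, 4.25 and 4.35 against 6.28, 6.39 and 6.24 (2.02 ± 0.18, adjusted p = 0.000118). The inhibitor Nfkbie read 5.94, 5.38 and 5.48 against 8.03, 7.97 and 7.48 (2.23 ± 0.18, adjusted p = 8.16e-05). These are transcripts that NF-kB itself induces, and the groups were apart in all 3. Bcl3 and Tnfaip2 rose by 1.16 ± 0.19 and 1.75 ± 0.29, and Cd14, the co-receptor for endotoxin, by 1.82 ± 0.24. The inhibitor Nfkbia was at 0.45 ± 0.28 (adjusted p = 0.414). In the caspase and inflammasome list 5 of 30 rose and 0 fell, a count that fell to between 2 and 4 when single arrays were left out (2 without anti-GBM replicate 1 or control replicate 3, 3 without anti-GBM replicate 2 or 3 or control replicate 1). The members that held were the necroptosis genes Ripk3 (1.12 ± 0.13), and Mlkl (1.35 ± 0.25), which read 3.62, 3.35 and 3.25 against 4.63, 5.40 and 4.23.

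Interferon response genes rose in 13 of 48 tested cases (27.1%), with 0 falls and a median of 0.52, but this count was among those that single arrays decided. It was 6 without anti-GBM replicate 1 or control replicate 1, 5 without anti-GBM replicate 2 or control replicate 2 or 3, and 18 without anti-GBM replicate 3, and 2 with the tubule covariate. Rsad2 (viperin), an antiviral enzyme, read 8.63, 8.56 and 8.62 in controls and 10.89, 11.16 and 10.49 in anti-GBM GN (2.24 ± 0.21, adjusted p = 0.000149). Oasl2, Irf7 and Herc6 rose by 2.08 ± 0.38, 1.41 ± 0.27 and 0.96 ± 0.18, while Ifit1 was at 1.25 ± 0.35 (adjusted p = 0.0566). Another probe set of Herc6 had the opposite sign. Of 15 genes of MHC class I and its loading 3 rose and 1 fell. H2-K1, the class I heavy chain, rose by 0.95 ± 0.18, the peptide transporter Tap1 by 1.38 ± 0.25 and the class I transactivator Nlrc5 by 1.09 ± 0.17, and the lipid-presenting Cd1d1 fell by 0.72 on the log2 scale (SE 0.14, adjusted p = 0.0108). The class II invariant chain Cd74 was at -0.36 ± 0.31 (adjusted p = 0.586).

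The interferon-stimulated response element (GAAA, any pair of bases, GAAA, searched on both strands) stands in the promoters of Rsad2 and Cxcl10, which are shown because they were the most strongly raised members of that list. The stretches are from RefSeq, GRCm38.p6, both on the minus strand, chr12:26456503-26456602 and chr5:92349030-92349129, 5′ to 3′, with the motif in capitals (its complement in Rsad2) starting at base -120 and base -213.
Rsad2: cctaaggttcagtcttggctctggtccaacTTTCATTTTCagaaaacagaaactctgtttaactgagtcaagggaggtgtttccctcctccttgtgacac
Cxcl10: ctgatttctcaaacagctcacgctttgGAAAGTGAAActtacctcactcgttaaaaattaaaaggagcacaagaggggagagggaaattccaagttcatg
The motif was found in 33.3% of the 48 promoters of tested interferon genes, in 3 of the 12 promoters of called members (25%) and in 2.98% of all promoters. The promoter table matched 38 of the 48 genes.

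The leukocyte lists held few called genes. The shares called higher in the macrophage, pan-leukocyte and neutrophil lists were nevertheless above the 4.78% of all genes. Most macrophage and pan-leukocyte genes had positive changes, against 5313 of all 11921 genes. The macrophage and monocyte list had a median of 0.41 with 25 of 29 tested members positive, and the pan-leukocyte list a median of 0.33 with 16 of 18 positive. The pan-leukocyte gene Ptprc (CD45) read 7.57, 6.81 and 6.69 in controls and 7.54, 7.08 and 6.56 in anti-GBM GN (0.04 ± 0.35, adjusted p = 0.978). The macrophage genes Csf1r and Cd68 were at 0.60 ± 0.34 (adjusted p = 0.35) and 0.98 ± 0.40 (adjusted p = 0.181), and Adgre1, a mark of mature macrophages, stayed between 3.02 and 3.51 on all 6 arrays. The neutrophil genes S100a8 and S100a9 were at -0.04 ± 0.50 (adjusted p = 0.982) and -0.14 ± 0.55 (adjusted p = 0.94), with arrays of the same replicate number at like levels in both groups (7.61, 6.82 and 5.84 against 7.57, 6.77 and 5.82 for S100a8). Of the 29 tested macrophage and monocyte genes 3 were called higher (10.3%), of 18 pan-leukocyte genes 2 (11.1%) and of 7 neutrophil genes 2 (28.6%). With the replicate block or without control replicate 3, 1 macrophage, 1 pan-leukocyte and 1 neutrophil gene were called higher. Of 5 T and NK cell genes 0 were called by limma (1 at an unadjusted p under 0.05), and of 5 B and plasma cell genes 0 were higher and 1 lower. The mean of the macrophage list was 5.93, 5.42 and 5.17 in controls and 6.33, 6.04 and 5.64 in anti-GBM GN. The groups overlap. The anti-GBM array was above the control array of the same number in 3 of 3 cases, as it was for the pan-leukocyte mean, Cd68 and Csf1r. For Ptprc this held only for replicate 2, and for S100a8 for no replicate. The labels do not say that arrays of the same number form pairs, so these cases are description only. The T and NK list had 24 members left untested at signals between 2.14 and 3.49. Several called members of these lists are not confined to leukocytes, such as Cd14 and the neutrophil gelatinase-associated lipocalin Lcn2, which injured tubules secrete. Lcn2 read 3.81, 3.59 and 3.56 against 6.08, 7.56 and 7.24 (3.31 ± 0.37, adjusted p = 0.000436). Of 19 tested complement genes 1 rose and 1 fell, and the riser, Cd93, is no complement component by present knowledge.

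Platelet and clotting genes stood out. Of 15 tested platelet and megakaryocyte genes 7 rose and 0 fell (median 1.31), 12 with the replicate block, 11 without anti-GBM replicate 3, 4 without control replicate 3 and 2 with the tubule covariate. A further 6 members on the array were left untested, at signals between 1.82 and 3.85. The platelet chemokine Ppbp read 3.62, 2.95 and 2.57 in controls and 8.27, 8.13 and 7.06 in anti-GBM GN (4.77 ± 0.44, 27.3-fold, adjusted p = 0.000118), and platelet factor 4 (Pf4) read 5.04, 4.09 and 3.30 against 8.95, 8.73 and 7.68 (4.31 ± 0.40, 19.8-fold, adjusted p = 0.000141). Integrin beta 3 (Itgb3), part of the platelet fibrinogen receptor and of the vitronectin receptor of other cells, read 2.54, 2.66 and 2.55 against 6.70, 7.15 and 5.83 (3.98 ± 0.48, adjusted p = 0.000651). In all 3 the lowest anti-GBM array was replicate 3. The von Willebrand receptor subunit Gp9 rose from 2.21, 2.20 and 2.19 to 3.47, 3.89 and 3.32 (1.36 ± 0.18, adjusted p = 0.000989). Itga2b, the platelet partner of Itgb3, was level, 4.52, 4.52 and 4.51 against 4.55, 4.52 and 4.50 (0.01 ± 0.13, adjusted p = 0.989).

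Of 26 tested genes of coagulation and fibrinolysis 10 rose and 2 fell (7 to 10 rises when single arrays were left out, 1 with the tubule covariate). The fibrinogen chains, which liver makes for plasma and injured epithelium can express, rose together. Fga read 5.48, 4.64 and 4.64 in controls and 6.86, 8.91 and 8.49 in anti-GBM GN (3.17 ± 0.44, adjusted p = 0.00155). Fgb read 4.13, 4.10 and 3.81 against 5.63, 7.45 and 6.60 (2.55 ± 0.49, adjusted p = 0.0106). Fgg read 7.14, 6.10 and 5.81 against 8.10, 10.16 and 9.65 (2.95 ± 0.48, adjusted p = 0.00383). In all 3 chains anti-GBM replicate 1 was the lowest and replicate 2 the highest of its group, the order also seen for Lcn2 and for the tubule injury marker Havcr1 (KIM-1). Havcr1 read 2.64, 2.72 and 2.60 in controls and 3.16, 5.24 and 4.33 in anti-GBM GN and did not pass the test (1.59 ± 0.76, adjusted p = 0.266). This order of 3 arrays is description only, and the source of the fibrinogen transcripts was not tested. The thrombin receptor F2r rose by 1.63 ± 0.23. Tissue factor (F3) and the plasminogen activator Plat were at 0.43 ± 0.37 (adjusted p = 0.587) and 0.15 ± 0.35 (adjusted p = 0.881).

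Immediate early genes rose in 17 of 38 tested cases and fell in 0 (median 0.78). The count was 10 without anti-GBM replicate 2, 11 without anti-GBM replicate 1 or control replicate 1 or 3, and 5 with the tubule covariate. The bZIP factor Maff read 2.66, 2.50 and 2.53 in controls and 5.89, 5.81 and 5.03 in anti-GBM GN (3.01 ± 0.29, adjusted p = 0.000151), and the orphan receptor Nr4a1 read 6.42, 6.73 and 6.75 against 9.06, 8.91 and 8.72 (2.26 ± 0.24, adjusted p = 0.000264). The AP-1 subunits Fosl2 and Fos rose by 2.17 ± 0.23 and 1.87 ± 0.26, Egr1 by 2.02 ± 0.35 and the stress factor Atf3 by 1.79 ± 0.25, whereas Jun, of the list, and Myc, outside it, were at 0.67 ± 0.28 (adjusted p = 0.19) and 0.21 ± 0.41 (adjusted p = 0.844). Of 37 genes of the unfolded protein and integrated stress responses 6 rose and 0 fell, a count of 2 without anti-GBM replicate 1 or 2 or control replicate 3, of 3 without control replicate 1 or 2 and of 4 without anti-GBM replicate 3. The cationic amino acid transporter Slc7a1, a target of ATF4, read 4.82, 4.75 and 5.23 against 6.87, 6.86 and 7.10 (2.01 ± 0.17, adjusted p = 8.66e-05). Heat shock genes were called higher in 2 of 29 cases (6.9%), and in 0 or 1 when any 1 array was left out. Of 33 tested injury and keratin genes 17 rose and 0 fell (median 1.18, 11 without anti-GBM replicate 2 or control replicate 3), of which vimentin, Tubb6, Lcn2 and Tnfrsf12a are given above, S100a6 rose by 1.81 ± 0.32 and Phlda1 by 2.09 ± 0.18, and the keratins Krt8 and Krt18 were at -0.11 ± 0.25 (adjusted p = 0.879) and 0.43 ± 0.28 (adjusted p = 0.439).

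Single ligands of the TGF beta, BMP and Wnt families rose. Of 36 tested TGF beta and BMP genes 8 rose and 3 fell (median 0.04), and 5 were called in all without anti-GBM replicate 2, 6 without control replicate 1, 2 or 3, and 7 without anti-GBM replicate 1 or 3. Bmp2 read 4.58, 5.05 and 4.86 in controls and 7.75, 8.14 and 7.41 in anti-GBM GN (2.94 ± 0.27, adjusted p = 0.000128). Inhbb, the subunit of activin B, read 2.32, 2.40 and 2.31 against 5.44, 5.90 and 4.48 (2.93 ± 0.38, adjusted p = 0.00107). Tgfb2 and Tgfb3 rose by 1.80 ± 0.18 and 1.66 ± 0.29, and Tgfb1 was at 1.51 ± 0.32 (adjusted p = 0.0178) with its call lost without anti-GBM replicate 2 (0.0887) or control replicate 1 (0.0721). All 3 TGF beta ligands thus had positive changes. In the Wnt list, where 2 of 30 rose (6.67%, against 4.78% of all genes) and 1 fell, Wnt4 read 2.46, 2.46 and 2.90 against 4.95, 5.07 and 4.41 (2.20 ± 0.32, adjusted p = 0.0021), the feedback inhibitor Nkd1 rose by 1.77 ± 0.27 and the secreted antagonist Wif1 read 5.07, 5.42 and 4.33 against 3.42, 3.37 and 3.28 (-1.58 ± 0.25, adjusted p = 0.00336). Of 32 growth factors and receptors 6 rose and 1 fell, with 4 called without anti-GBM replicate 2 or control replicate 1 or 3. The growth factor Pdgfa rose by 0.94 ± 0.14 and the receptor Fgfr3 by 1.01 ± 0.16. Of 20 EGF receptor family genes 0 were called by limma and 6 had an unadjusted p under 0.05.

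Among metabolic genes the lipid chaperones Fabp4 and Fabp5 rose, in a list called at a share near that of all genes. Fabp4, abundant in capillary endothelium and macrophages, read 10.36, 10.69 and 10.14 in controls and 12.67, 13.29 and 12.26 in anti-GBM GN (2.34 ± 0.28, adjusted p = 0.000621), and Fabp5 rose by 1.27 ± 0.16. The peroxisomal oxidase Acox2 fell by 1.26 on the log2 scale (SE 0.22, adjusted p = 0.00529). The lipid list as a whole had 3 called higher and 1 lower of 44 (9.09% in all, against 7.09% of all genes). Its median was -0.20, with 13 of the 44 changes positive. Cyp1b1, a cytochrome P450 that oxidises estrogens and fatty acids, read 4.10, 3.89 and 3.55 against 7.0, 6.22 and 6.54 (2.74 ± 0.26, adjusted p = 0.000141). The phosphofructokinase Pfkp rose by 1.10 ± 0.16. The caveolar proteins Cavin1 and Ehd2 rose by 1.63 ± 0.19 and 1.87 ± 0.17, the latter with another probe set of opposite sign. Of 31 sterol genes 1 was called (3.23%, against 7.09% of all genes), Ch25h.

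Genes of the tubule were among the falls. Of 44 tested proximal tubule genes 4 fell (9.09%, against 2.31% of all genes) and 0 rose, with a median of -0.24. Of the 44, 2 were called without anti-GBM replicate 1 or 2 or control replicate 3. Hpd, which degrades tyrosine, read 10.51, 11.46 and 11 in controls and 9.15, 8.94 and 8.70 in anti-GBM GN (-2.06 ± 0.37, adjusted p = 0.00729), and the carnitine and ergothioneine transporter Slc22a4 read 7.95, 7.50 and 7.87 against 5.83, 6.20 and 6.57 (-1.57 ± 0.18, adjusted p = 0.000546). Dnase1, the secreted nuclease abundant in kidney, read 13.58, 14.11 and 13.71 against 12.53, 12.59 and 12.70 (-1.19 ± 0.18, adjusted p = 0.0028). The groups did not overlap in any of these. In contrast, the defining markers of the proximal tubule, the endocytic receptors Lrp2 and Cubn and the transporters Slc34a1 and Slc5a2, were at -0.16 ± 0.26 (adjusted p = 0.804), -0.28 ± 0.18 (adjusted p = 0.431), -0.14 ± 0.24 (adjusted p = 0.829) and -0.03 ± 0.18 (adjusted p = 0.956). Cyp2j11 fell by 0.91 on the log2 scale (SE 0.13) and the glutathione transferase Gstk1 by 0.66 (SE 0.11), in a family where 4 of 17 fell and 0 rose (2 without anti-GBM replicate 2 or any 1 control). In the list of loop, distal tubule and collecting duct 1 of 35 genes was called (2.86%, against 7.09% of all genes). This was Pvalb of the distal convoluted tubule (-1.78 ± 0.42, adjusted p = 0.0271), which kept its call only without anti-GBM replicate 3 or control replicate 3. Uromodulin (Umod) was at 0.35 ± 0.11 (adjusted p = 0.0986).

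Respiratory chain genes had small changes, nearly all negative. By limma 0 of 44 tested members were called and 15 had an unadjusted p under 0.05, with a median of -0.26 and 4 positive changes, and the groups did not overlap, with anti-GBM GN lower, for 29 of the 44, against 16% of all genes. The mean of the list was 12.49, 12.42 and 12.42 in controls and 12.20, 12.14 and 12.27 in anti-GBM GN. Complex I subunits gave 32 of 42 without overlap, all lower, and 1 call, Ndufa6 (-0.49 ± 0.13, adjusted p = 0.0481), which was lost with the block (0.0785) and without any 1 array (0.0548 to 0.195). The proximal tubule list, whose cells are rich in mitochondria, had a median of -0.24 on the same arrays, and its part in this result was not tested. Cytosolic ribosomal proteins (0 of 37 called by limma and 0 at an unadjusted p under 0.05, median -0.12), ribosome biogenesis genes (0 of 44 and 6, median 0.04) and the proteasome list (0 of 34 and 4, median -0.04) had medians nearer 0. Of 14 housekeeping genes 1, beta-actin, was called, and Rplp0, Eef2 and Hprt were at 0.01 ± 0.15, 0.00 ± 0.14 and -0.05 ± 0.20.

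Clock genes varied widely among the anti-GBM arrays. The clock output factor Dbp read 12.22, 12.44 and 12.09 in controls and 6.41, 8.29 and 10.98 in anti-GBM GN (-3.69 ± 1.0, adjusted p = 0.051), and Arntl (BMAL1) of the opposite phase read 2.50, 2.45 and 2.68 against 6.35, 5.80 and 3.44 (2.65 ± 0.73, adjusted p = 0.0548). For both the groups did not overlap and anti-GBM replicate 3 lay closest to the controls. Without that array Dbp and Arntl passed (adjusted p = 0.00592 and 0.00685), and of 23 tested clock genes 1 rose and 7 fell, against 0 and 2 with all arrays and 0 in all without anti-GBM replicate 1 or 2 or control replicate 1 or 2. The called pair was Ciart, which read 5.87, 7.0 and 6.25 against 3.11, 3.84 and 4.38 (-2.60 ± 0.65, adjusted p = 0.0376), and Nr1d2, at -1.20 ± 0.27 (adjusted p = 0.0246). Ciart kept its call only without anti-GBM replicate 3 (0.0423), and Nr1d2 without that array (0.0131) or control replicate 3 (0.0381). The labels give no hour of killing.

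Tested as an interaction, the response of C57BL6J differed from that of 129S2SvPAs for 67 of the 11921 genes (0.562%) at an adjusted p under 0.05.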

How the data were processed

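RNA of sieved glomeruli was labelled with biotin and hybridised to Affymetrix mouse arrays, per the labels' protocols. The authors deposited log2 values for 45037 probe sets on 12 arrays, between 1.12 and 15.02. MAS5 and GCRMA are named in the submitters' processing notes, without saying which made these values, and scan dates are not given in the sources used here, so no batch could be examined. Probe sets were named from the platform annotation updated through Entrez identifiers: 34957 had 1 symbol, 920 several and 9160 none. The probe set with the highest mean stood for each of 18201 genes. A gene was tested if it lay above the table median of 3.03 on at least 3 of the 12 arrays, which 11921 passed and 6280 did not.

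Groups were compared with limma 3.58.1 in R 4.3.3 on the log2 values, with 1 mean per group over all 12 arrays, an empirical Bayes prior and Benjamini-Hochberg adjustment over all genes tested. P-values cover the spread between mice, 3 per group, and this number limits the precision. On simulated data of this comparison, 56% of 100 genes with a true log2 change of 1 and 98% of 100 with a change of 2 were called, with 11 false calls among 11721 genes. The simulated errors were normal and independent between arrays, and fewer genes changed than were called here. Shared deviations of arrays and the difference in tubule signal were not simulated, so the number of false calls in the real data is not given by it. The labels do not say what a replicate number stands for. Deviations from the group means correlated at 0.208, 0.241 and 0.33 for arrays of the same number and at -0.387 to 0.153 for arrays of unlike numbers. Deviations within a group sum to 0, so these correlations are not independent, and whether the arrays are paired was not tested. The fit with that number as a block is given where it changes a call. Of 350 called genes with more than 1 tested probe set, 28 had another of opposite sign, and in 0 of them was that one called. Another probe set of the same sign could still change less and not be called, as for Actn1.

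The gene lists and the genes named were chosen with earlier results of these data known. Named genes are the 15 largest called rises and falls whose arrays do not overlap, up to 6 members with the lowest p of each list and 3 of each symbol family, a set of marker genes, the 5 most abundant called rises and falls, the housekeeping genes with the highest p, the 5 largest changes from or to the floor in each direction, and the 3 genes on each side of the threshold. Agtr1a, Col1a2, Col3a1, Col4a4, Edn1, Egr1, F3, Fos, Ifit1, Jun, Krt8, Mdm2, Myc, Nfkbia, Notch1, Notch4, Plat and Ptpro are outside that rule and were chosen after their values were seen. Promoters are those of the RefSeq table for GRCm38.p6.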

Additional observations from a re-analysis of the deposited data

Results flagged for a closer look

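Among the genes named above, 17 had a response in C57BL6J that differed from that in 129S2SvPAs by the interaction test (limma, adjusted over 11921 genes). Differences are the 129S2SvPAs response minus the C57BL6J response on the log2 scale. Of 72 tested mitosis genes 9 differed, all 9 with a smaller response in 129S2SvPAs, while others named above, such as Ccna2, Ube2c and Mki67, did not pass (adjusted p = 0.38, 0.637 and 0.711). Among the named mitosis genes and E2f7 of the replication list the difference was -2.45 for Nuf2, -2.05 for Kif23, -1.93 for Ckap2, -1.79 for Hmmr, -1.69 for Bub1, -1.60 for E2f7, -1.21 for Knstrn and -1.12 for Tpx2. The fall of Dnase1 was larger in 129S2SvPAs (-1.52, adjusted p = 0.036). The differences were positive for Lcn2 (3.22), Cxcl1 (2.38), Cd14 (2.34), Crct1 (2.35) and Timp1 (1.75), all of which were called higher in C57BL6J. They were also positive for Esm1 (2.44), Gm266 (2.31) and Tmc7 (2.16), which fell in C57BL6J.

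Probe sets that name no single gene were left out of the counts above and also held calls. Of 3073 such probe sets tested, 110 were called (3.58%). Of 2456 with no symbol, 39 were called higher and 39 lower, and of 617 with several symbols, 16 and 16.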

How the results depend on the processing

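The number of genes called moved most with the weighting of arrays and the tubule covariate. It was 2021 with array weights (1023 higher, 998 lower), 172 with the mean of the proximal tubule list as a covariate (140 and 32), 368 at an adjusted p under 0.01 (300 and 68) and 468 with a change of at least 2-fold as well (79 lower). Leaving out 1 array gave 407 to 978 genes, 332 to 643 higher and 75 to 335 lower. The replicate block gave 803 calls, 655 of them among the 845, quantile normalization 854, the 6 C57BL6J arrays alone 976, no filter 660, the stricter filter 672 and all probe sets singly 1049. Of the 178 called genes named in the text, 0 changed direction in any fit that gave them a value (134 of the 178 had one under the stricter filter and 174 with the mean of probe sets), 163 were called in all 6 leave-one-out fits, 173 with the replicate block and 90 with the tubule covariate. Most named genes were chosen for large changes or low p in these same data, so they are more stable than called genes at large. Of all 845 called genes, 370 were called in all 6 leave-one-out fits. The replicate block ended the calls of Dhtkd1, Man1a2, Nid2, Itgb1 and Ndufa6 and changed no other call of a named called gene.

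Genes that did not pass and lie near 0 changed sign, and the cause was not tested. With the tubule covariate, Alas2 was at -0.03, Cubn at 0.22, Flt1 at -0.03, Itga2b at -0.13, Krt8 at 0.16, Lrp2 at 0.36, Plat at -0.05, Ptprc at -0.26, Rplp0 at -0.07, Slc34a1 at 0.41, Slc5a2 at 0.44, Synpo at -0.34 and Tek at -0.01. With array weights, Eef2 was at -0.05, Flt1 at -0.00, Hprt at 0.01, S100a8 at 0.20 and S100a9 at 0.06. With arrays shifted to one median, Eef2 was at -0.01, Flt1 at -0.00 and Itga2b at 0.00. With the replicate block, Eef2 was at -0.00. With the mean of a gene's probe sets, Pax8 was at -0.11 and Plat at -0.30. With quantile normalization, Slc5a2 was at 0.05. The covariate is built from the list that holds Cubn, Lrp2, Slc34a1 and Slc5a2, so it removes their own shift. Over the 6 leave-one-out fits the changes ran for Alas2 from -0.12 to 0.86, Eef2 from -0.10 to 0.11, Flt1 from -0.25 to 0.18, Hprt from -0.20 to 0.08, Itga2b from -0.01 to 0.02, Krt8 from -0.31 to 0.09, Notch1 from -0.38 to 0.09, Plat from -0.05 to 0.46, Ptprc from -0.20 to 0.31, Rplp0 from -0.08 to 0.09, S100a8 from -0.49 to 0.41, S100a9 from -0.65 to 0.36, Slc34a1 from -0.38 to 0.10, Slc5a2 from -0.22 to 0.13 and Synpo from -0.10 to 0.33.

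With 3 mice per group, changes of about 2-fold were recovered only in part on simulated data, so a gene that did not pass is not shown to be unchanged. Signals near the floor understate fold changes.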
